A study of Sus scrofa with 6 samples.

Results

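TCONS_00265313, TCONS_00785462, TCONS_00822253 and TCONS_00823102 are 4 of the 10813 long non-coding RNAs (lncRNAs) listed among 32420 features in fetal pig ovary. They were chosen by their highest RPKM (read number relative to transcript length and to the mapped reads of the library) over 6 libraries, which came next after that of TCONS_00077979, the most abundant lncRNA of this tissue. The libraries were made from total RNA of ovaries at 49 days post coitus, 3 from Meishan, a Chinese breed, and 3 from Large White, a European breed. No treatment, genetic change or sorting of cells is named for either group. The labels number the samples of each breed but do not say whether each came from a separate fetus or litter, so the p-values below measure only the spread between these samples, which may be technical.

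LncRNAs are transcripts that carry no long reading frame and are not known to be translated. Some lie on the strand opposite to a protein-coding gene (antisense lncRNAs), and some antisense lncRNAs are known to raise or lower the level of the gene they overlap. The early fetal ovary holds germ cells, supporting cells that become granulosa cells, stroma, vessels and blood, and a whole-ovary library mixes the RNA of all of them, so fewer cells of a type and less RNA per cell cannot be told apart in these values.

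The depth was similar across libraries, with 35185781 to 39033204 mapped reads, of which 36.6% to 46.3% fell on listed features. Meishan replicate 3 had the lowest of these shares and stood apart from the other libraries. Its Pearson r of log2(RPKM + 1) with them, over 14902 features, was 0.865 to 0.888, compared with 0.932 to 0.975 among the other libraries. It also held the highest summed RPKM of the testis markers, of which 4 of 6 could be paired with an identifier (SOX9, DHH, INSL3 and CYP17A1), at 297 compared with 2.74 and 4.49 in the other Meishan libraries and 18.7 to 35.3 in Large White. None of these 4 markers was at 0 in every library, and INSL3, a peptide hormone of gonadal steroid-producing cells, made up 235 of that sum. Of the pregranulosa and supporting cell markers, 5 of 11 could be paired, and GATA4 and WT1, which mark gonadal somatic cells, were present in all 6 libraries. The 5 markers summed to an RPKM of 84.1 in Meishan replicate 3 and 38.3 to 50.9 elsewhere, with FST, an activin-binding protein, at 37.2 there and 6.77 to 9.56 elsewhere, while GATA4 was at 29.0 there and 30.4 and 29.2 in the other Meishan libraries. Of the germ cell markers, 9 of 14 could be paired, and DDX4, a germ cell RNA helicase, had an RPKM of 0 to 1.58 and was listed at 0 in Meishan replicate 1. The part of these marker differences in the results below was not tested, and the breed differences and the correlations among the 4 lncRNAs are also given without Meishan replicate 3.

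TCONS_00265313 was the second most abundant lncRNA by its highest value. Its RPKM was 493.5, 355.9 and 38.7 in the Meishan replicates 1 to 3 and 115.4, 218.7 and 117.1 in the Large White replicates 1 to 3. Both the highest and the lowest value came from Meishan, and the Large White values lay between them. The transcript is 662 nt by the length recovered from the RPKM steps, and these values rest on 999 to 11948 reads, the most of the 4.

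TCONS_00785462 had an RPKM of 143.2, 39.3 and 8.84 in the Meishan replicates and 226.4, 285.7 and 162.1 in the Large White replicates. All 3 Large White values were above all 3 Meishan values, so the groups did not overlap. It ranked 2 among the lncRNAs in each Large White library but 4, 10 and 74 in the Meishan replicates 1 to 3. Its recovered length is 313 nt, with 108 to 3349 reads.

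TCONS_00822253 is the only one of the 4 with a readable annotation, as an antisense lncRNA of 209 nt to NDRG2 on the plus strand of scaffold GL896236.1 of Sscrofa10.2. Its 3 exons span bases 20572 to 20596, 20900 to 21041 and 22794 to 22835. Its RPKM was 36.9, 39.2 and 220.2 in the Meishan replicates and 54.7, 22.7 and 53.2 in the Large White replicates. Meishan replicate 3 was far above the other libraries, among which the breeds overlapped. The reads behind these values numbered 178 to 1796. The positions of the other 3 lncRNAs were not used here.

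TCONS_00823102, with a recovered length of 261 nt, had an RPKM of 78.6, 27.0 and 197.5 in the Meishan replicates, and of 28.5 and 60.4 in the Large White replicates 1 and 3. In Large White replicate 2 it was listed at 0. The highest value again came from Meishan replicate 3, and the ranges of the breeds overlapped. The other libraries held 262 to 2012 reads of it, while a floor of 3 reads in Large White replicate 2 equals an RPKM of 0.307. The lowest of the other libraries was at least 87.9-fold higher than that floor, which covers counting error only. TCONS_00823102 was the only one of the 32420 features at 0 in Large White replicate 2 with at least 100 reads in every other library. There was 1 such feature, a protein-coding gene, in each of Meishan replicates 2 and 3 and none in the remaining 3 libraries.

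**Figure D1:**
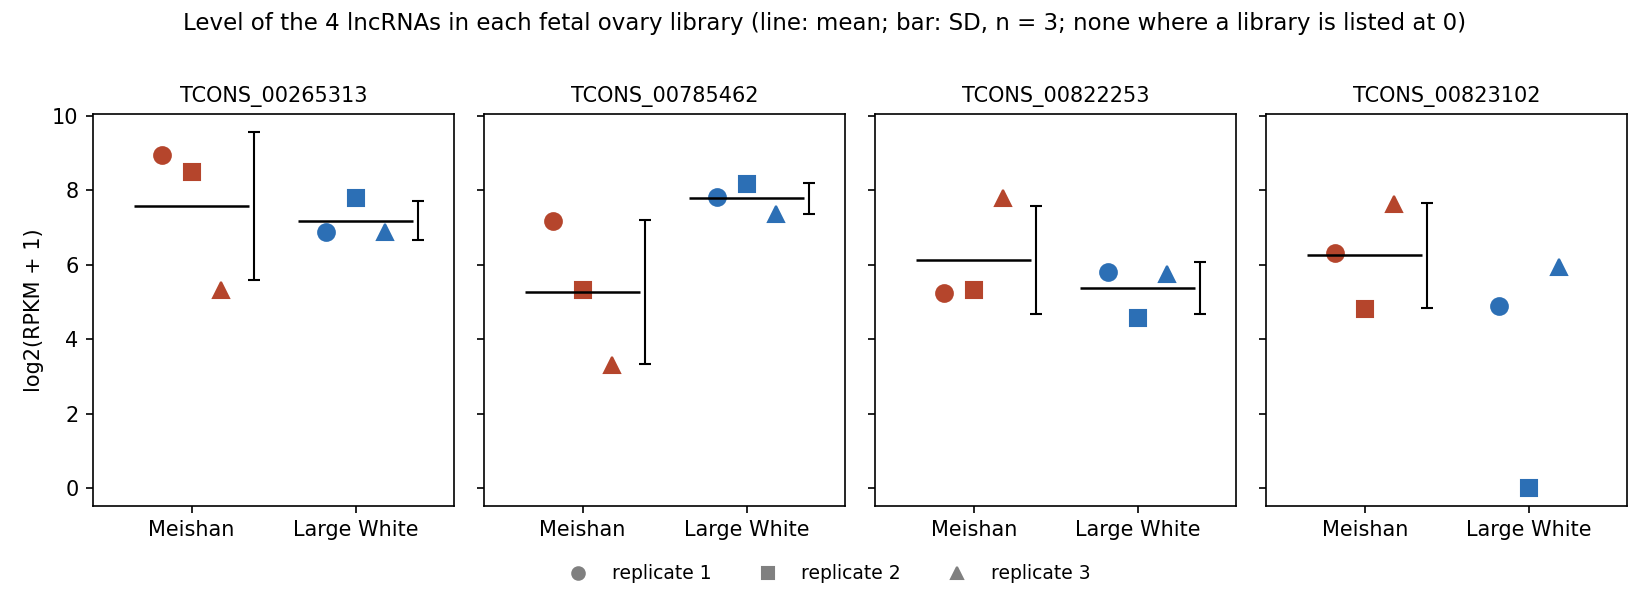
The vertical axis is log2(RPKM + 1) of each lncRNA, 1 panel per lncRNA, with points for the 3 Meishan (red) and 3 Large White (blue) libraries, and lines and bars for the mean and SD of log2 values (n = 3), left out where a library is listed at 0. The Meishan replicate 3 triangle is the lowest point for TCONS_00265313 and TCONS_00785462 and the highest for TCONS_00822253 and TCONS_00823102, and TCONS_00823102 is at 0 in Large White replicate 2.

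The maximum chose these lncRNAs, and other measures of abundance ordered them differently. The limits of the choice were TCONS_00077979 above, with a highest RPKM of 4659, and TCONS_00727935 below, with 145.7, compared with 197.5 for TCONS_00823102, the last one inside. By the median of the 6 libraries, TCONS_00265313 (167.9) and TCONS_00785462 (152.7) kept ranks 2 and 3, while TCONS_00822253 (46.2) and TCONS_00823102 (44.5) ranked 11 and 12. Thus 2 of the 4 were among the 5 highest lncRNAs by the median, and 1 of the 4, TCONS_00265313, was by the lowest library. The highest values of TCONS_00822253 and TCONS_00823102 both came from Meishan replicate 3. Without that library their highest values were 54.7 and 78.6, and their ranks by the maximum 12 and 8.

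**Figure D2:**
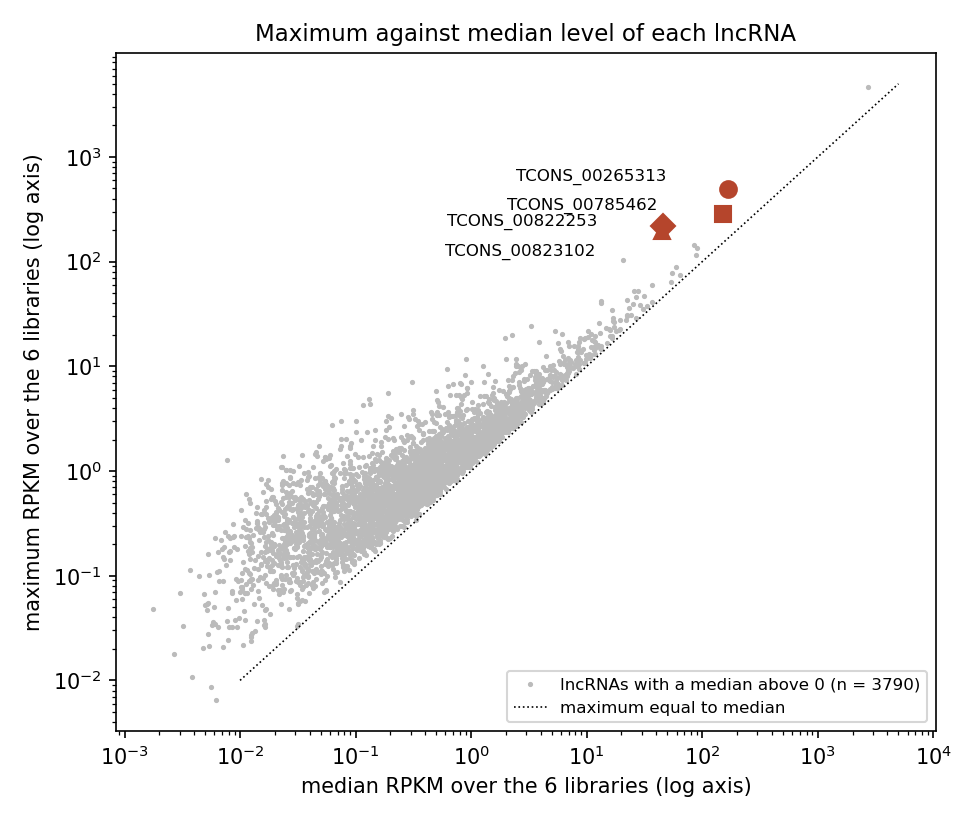
Each point is a lncRNA with a median above 0, placed by its median (horizontal, log axis) and its maximum (vertical, log axis) RPKM over the 6 libraries, with the 4 lncRNAs in red and a dotted line where both are equal. TCONS_00822253 and TCONS_00823102, with medians of 46.2 and 44.5, lie farther above the line than TCONS_00265313 and TCONS_00785462.

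RPKM divides by length, and 3 of the 4 transcripts are short. The median length of the 1514 lncRNAs that passed the filter on low values (0.5 RPKM or more in 3 or more libraries, which all 4 passed) was 632 nt. Only 32 of the 1514 were shorter than TCONS_00822253, 148 than TCONS_00823102 and 270 than TCONS_00785462, while TCONS_00265313 was near the median. Ranked by mean reads, which do not divide by length, TCONS_00265313 was 4, TCONS_00785462 13, TCONS_00823102 51 and TCONS_00822253 60. Together the 4 lncRNAs held 0.0344% to 0.0927% of the reads on listed features in a library and 4.67% to 9.07% of the summed RPKM of all lncRNAs.

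The order of the 4 within a library differed between the breeds and in Meishan replicate 3. In Meishan replicates 1 and 2, TCONS_00265313 was first and TCONS_00785462 second by RPKM. In the 3 Large White libraries TCONS_00785462 was first and TCONS_00265313 second. The RPKM ratio of TCONS_00265313 to TCONS_00785462 was 3.45, 9.07 and 4.37 in the Meishan replicates and 0.510, 0.765 and 0.722 in the Large White replicates. This ratio was thus above 1 in every Meishan library, Meishan replicate 3 included, and below 1 in every Large White library; it was chosen after its values were seen and was not tested. In Meishan replicate 3, TCONS_00822253 and TCONS_00823102 took the first and second places. These lncRNAs had no fixed order to each other, as the ratio of TCONS_00823102 to TCONS_00822253 ranged from 0.522 to 2.13 where both were above 0.

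All 4 lncRNAs varied more between libraries than most features did. The SD of log2(RPKM + 1) over the 6 libraries was 1.31 for TCONS_00265313, 1.86 for TCONS_00785462, 1.09 for TCONS_00822253 and 2.63 for TCONS_00823102, compared with a median of 0.42 over the 1514 lncRNAs and 0.30 over 13388 protein-coding genes. Because a choice by the maximum favours lncRNAs with a high library, these SDs are a description. The log2(RPKM + 1) scale also understates the spread of low features, so these medians are not matched for level. On the RPKM scale, the median coefficient of variation was 53.2% over tested lncRNAs and 26.6% over tested protein-coding genes. The counting error of the mean read number was 1.35% for TCONS_00265313 and 4.21% for TCONS_00822253, with the other 2 lncRNAs between them, whereas the coefficient of variation (CV) of RPKM over 6 libraries ranged from 73.7% for TCONS_00785462 to 107.7% for TCONS_00823102. Among the Large White libraries alone, the CV was 39.3% for TCONS_00265313, 27.5% for TCONS_00785462, 41.4% for TCONS_00822253 and 101.9% for TCONS_00823102, which includes the library at 0. The CV among the Meishan libraries was 78.8%, 110.5% and 106.5% for these first 3 lncRNAs, in the same order, above the Large White values, and 86.6% for TCONS_00823102, below its Large White value.

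**Figure D3:**
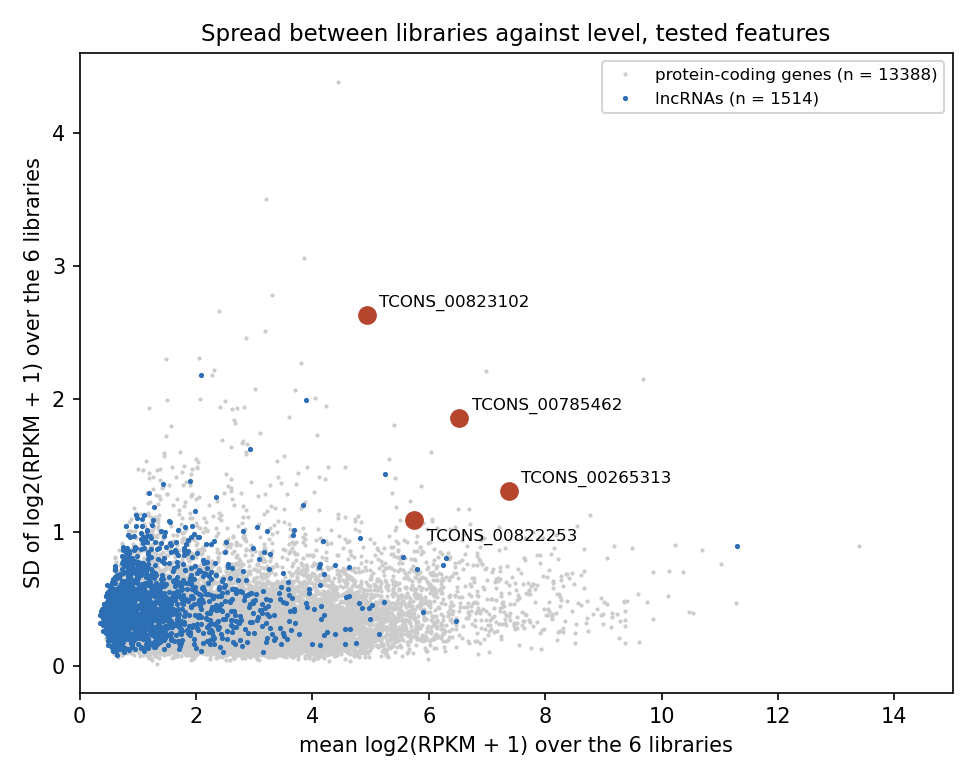
The SD of log2(RPKM + 1) over the 6 libraries is plotted against the mean of log2(RPKM + 1) for tested lncRNAs and protein-coding genes, with the 4 lncRNAs marked. The 4 lie between 1.09 and 2.63, above the median of 0.42 for tested lncRNAs.

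Meishan replicate 3 departed from the median of the other 5 libraries in opposite directions for the 2 pairs of lncRNAs. TCONS_00265313 was 5.66-fold and TCONS_00785462 18.3-fold below that median in RPKM. TCONS_00822253 was 5.61-fold and TCONS_00823102 6.92-fold above it. Only 1 of the 1514 tested lncRNAs had a lower log2 departure in this library than TCONS_00785462, and only 1 had a higher one than TCONS_00823102. TCONS_00822253 and TCONS_00823102 were chosen by their values in this library, so their high departures follow in part from the choice and are a description. Meishan replicate 3 thus gave the lowest of the 6 values for the first pair and the highest for the second, whose lowest values were both in Large White replicate 2. Over all tested features it gave the highest value for 24.3% and the lowest for 30.1%.

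The breeds were compared with limma on log2(RPKM + 1) over the 14902 features that passed the filter, where a feature was called at a fold change of at least 2 and a Benjamini-Hochberg adjusted p under 0.05. None of the 4 lncRNAs was called by limma, compared with 0.758% of all tested features and 0.925% of tested lncRNAs. With limma-voom on the recovered reads, 0 of the 4 were called as well. At an unadjusted p under 0.05, 1 of the 4, TCONS_00785462, passed in both fits, where 15.9% of all tested features and 14.7% of tested lncRNAs passed in the limma fit. In the limma-voom fit 2431 of 14902 features and 183 of 1514 lncRNAs passed.

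For TCONS_00785462 the mean RPKM was 63.8 ± 70.5 in Meishan and 224.7 ± 61.8 in Large White (SD, n = 3 each). The difference of Meishan minus Large White on the log2 scale was -2.51 (SE 0.84, 95% confidence interval -4.47 to -0.55; limma, Benjamini-Hochberg adjusted p = 0.223). It was the only one of the 4 whose groups did not overlap. In either direction this was the case for 23.6% of all tested features and 18% of tested lncRNAs. With the lower values in Meishan it was the case for 13.6% and 7.6%, in the same order. A two-sided exact permutation test gave p = 0.1, the smallest that 3 against 3 libraries allow. Without Meishan replicate 3 the log2 difference was -1.53, and without Meishan replicate 1 it was -3.47.

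For TCONS_00265313 the mean RPKM was 296 ± 233 in Meishan and 150.4 ± 59.1 in Large White (SD, n = 3 each), a difference within the spread of the libraries (log2 difference 0.40, SE 0.88, 95% confidence interval -1.64 to 2.45; limma, adjusted p = 0.853; two-sided exact permutation p = 0.8). Its direction depended on single libraries. Without Meishan replicate 3 the log2 difference was 1.54 (SE 0.32; limma, adjusted p = 0.0589). In that fit, 2984 of 14377 tested features had an unadjusted p under 0.05 and 240 were called. The log2 difference of TCONS_00265313 was -0.28 without Meishan replicate 1 and -0.046 without Meishan replicate 2.

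For TCONS_00822253 the mean RPKM was 98.8 ± 105.1 in Meishan and 43.5 ± 18.0 in Large White (SD, n = 3 each). The log2 difference of 0.74 (SE 0.69, 95% confidence interval -0.85 to 2.34; limma, adjusted p = 0.638; two-sided exact permutation p = 0.6) was within the spread. Without Meishan replicate 3 it was -0.089, so the higher Meishan mean rested on that library.

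TCONS_00823102 had the widest interval of the 4. Its log2 difference was 2.64 (SE 1.45, 95% confidence interval -0.73 to 6.01; limma, adjusted p = 0.416; two-sided exact permutation p = 0.3), and its size depends on the pseudocount, with 1 library listed at 0. It was 3.75 with a pseudocount of 0.1, 0.84 without Large White replicate 2 and 1.95 without Meishan replicate 3.

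**Figure D4:**
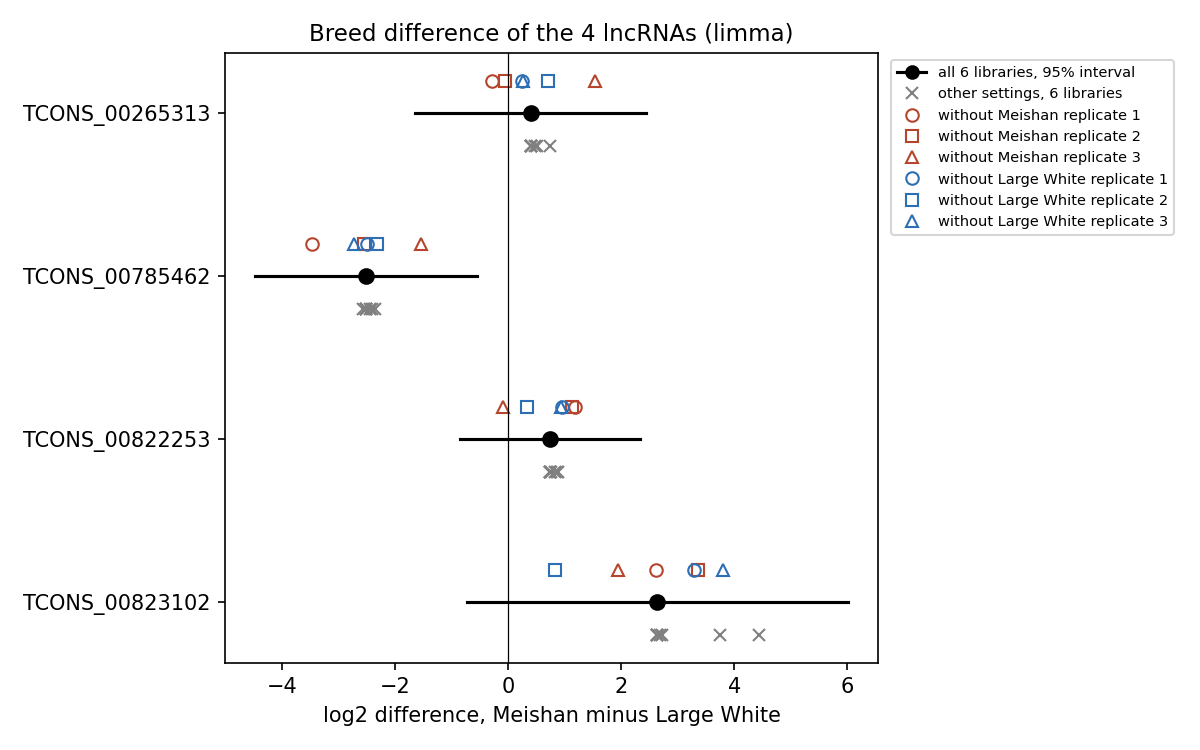
The difference in log2(RPKM + 1), Meishan minus Large White, is shown for each of the 4 lncRNAs with all 6 libraries (filled points, lines for the 95% confidence interval), with each library left out in turn (open symbols) and under the other settings (crosses). With 1 library left out, TCONS_00785462 stays below 0 (-3.47 to -1.53), TCONS_00823102 stays above 0 (0.84 to 3.81), and TCONS_00265313 and TCONS_00822253 lie on both sides of 0.

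The 4 lncRNAs form 6 pairs, and none of the 6 correlations of log2(RPKM + 1) over the 6 libraries passed an exact permutation test after Benjamini-Hochberg adjustment over the 6 pairs. The strongest positive value was between TCONS_00822253 and TCONS_00823102 (Pearson r = 0.74, two-sided exact permutation p = 0.0528, adjusted 0.161; Spearman rho = 0.60, exact permutation p = 0.242, adjusted 0.483). It was 0.81 without Meishan replicate 3 but -0.24 without the 2 libraries farthest from the median of TCONS_00822253, Meishan replicate 3 and Large White replicate 2, so it rests on those libraries. Both lncRNAs were chosen by their values in Meishan replicate 3. A shared high value there thus follows from the choice, which the permutation p-values do not take into account. In Large White replicate 2 TCONS_00822253 had its lowest value and TCONS_00823102 was listed at 0.

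TCONS_00265313 and TCONS_00822253 gave the strongest negative value (r = -0.83, two-sided exact permutation p = 0.075, adjusted 0.161; rho = -0.83, exact permutation p = 0.0583, adjusted 0.35). It was -0.49 without Meishan replicate 3, -0.58 without the 2 farthest libraries, Meishan replicates 1 and 3, and -0.98 for deviations from the breed means. TCONS_00785462 was also negatively related to TCONS_00822253 (r = -0.81, two-sided exact permutation p = 0.158, adjusted 0.2375; rho = -0.49, exact permutation p = 0.356, adjusted 0.533). That r was -0.51 without Meishan replicates 2 and 3 and -0.17 without Meishan replicate 3 alone. For TCONS_00785462 and TCONS_00823102, r was -0.61 (two-sided exact permutation p = 0.0806, adjusted 0.161; rho = -0.66, exact permutation p = 0.175, adjusted 0.483), and it was -0.40 without Meishan replicate 3, -0.37 for deviations from the breed means and -0.90 without Meishan replicates 2 and 3.

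The most abundant pair, TCONS_00265313 and TCONS_00785462, had an r of 0.49 (two-sided exact permutation p = 0.386, adjusted 0.463; rho = 0.09, exact permutation p = 0.919, adjusted 0.919). The sign of this relation depended on Meishan replicate 3. For deviations from the breed means r was 0.92 with all 6 libraries, while for the values themselves it was -0.50 without Meishan replicate 3 and -0.69 without Meishan replicates 1 and 3. Within each breed there are 3 libraries, too few for a correlation. TCONS_00265313 and TCONS_00823102 had the r nearest to 0 (r = -0.35, two-sided exact permutation p = 0.533, adjusted 0.533; rho = -0.31, exact permutation p = 0.564, adjusted 0.677), with an r of -0.34 without Meishan replicates 1 and 3 and 0.074 without Meishan replicate 3.

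NDRG2, a member of the N-myc downstream-regulated gene family known for a high level in astrocytes and for roles in differentiation and stress, lies on the strand opposite to TCONS_00822253. The RPKM of NDRG2 was 16.5, 15.4 and 84.0 in the Meishan replicates and 24.6, 14.0 and 19.8 in the Large White replicates. Like its antisense lncRNA, it was highest in Meishan replicate 3 and lowest in Large White replicate 2. The RPKM of TCONS_00822253 was 2.23, 2.56 and 2.62 times that of NDRG2 in the Meishan replicates and 2.22, 1.62 and 2.69 times in the Large White replicates. The lncRNA thus had the higher RPKM in all 6 libraries, though with its 209 nt it held only 20.8% to 30.3% of the reads of both.

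Over the 6 libraries, TCONS_00822253 and NDRG2 had an r of 0.98 (two-sided exact permutation p = 0.00556, adjusted over the 6 pairs and this one 0.0389) and a rho of 0.94 (exact permutation p = 0.0167, adjusted 0.117). The relation was 0.89 without Meishan replicate 3 and Large White replicate 2, and 0.86 without Meishan replicate 3 alone. TCONS_00822253 was chosen by its value in Meishan replicate 3, where NDRG2 was also highest. The permutation p-values do not take this choice into account, and rho did not pass after adjustment. A close relation was common among such pairs. Over the 173 antisense lncRNAs of the readable annotation that passed the filter together with their sense gene, the median r was 0.81, and 21 pairs had an r at least as high as this one. Counting was strand-specific by the methods of the study, and how completely the libraries kept the strand was not tested. The 6-library log2 difference of NDRG2 between the breeds was 0.53 (SE 0.60; limma, Benjamini-Hochberg adjusted p = 0.704). Of its family, NDRG1, NDRG2 and NDRG3 passed the filter and 0 of these 3 were called.

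**Figure D5:**
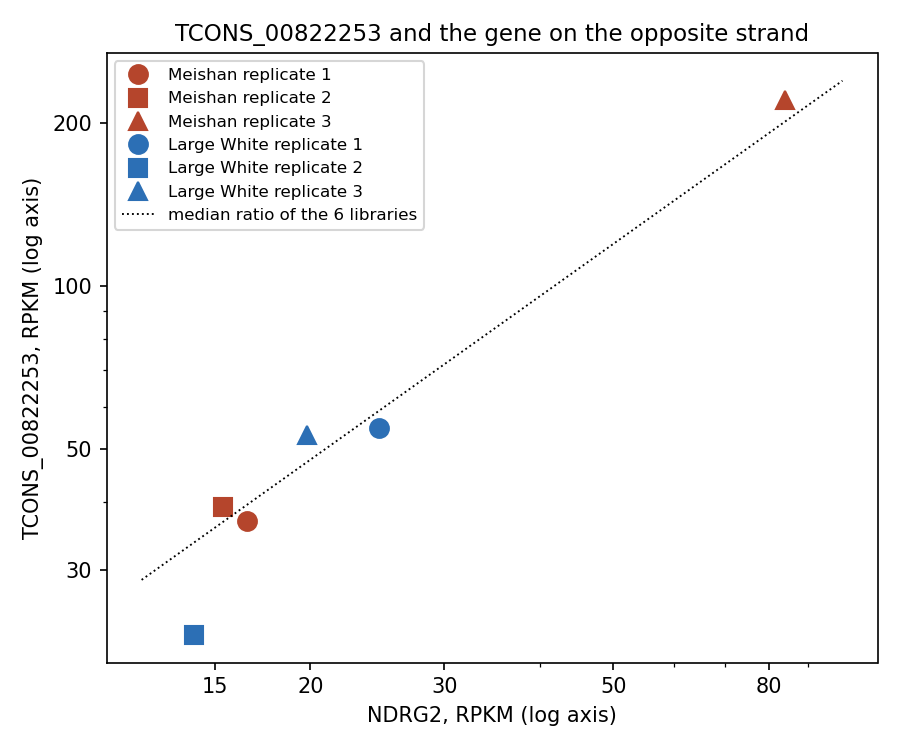
The RPKM of TCONS_00822253 (vertical, log axis) is plotted against that of NDRG2 (horizontal, log axis), 1 point per library, with a dotted line at the median ratio of the 6 libraries. Meishan replicate 3 is at 84.0 and 220.2, apart from the other 5 libraries, and Large White replicate 2 lies below the line with the lowest values of both.

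The other antisense lncRNAs annotated on scaffold GL896236.1 were at or near 0. TCONS_00822258, antisense to RNASE13, had an RPKM of 0.162 in Large White replicate 1 and was listed at 0 elsewhere, and TCONS_00822283, antisense to TPPP2, did not exceed 0.213. Their sense genes RNASE13 and TPPP2 had an RPKM of at most 0.0827. The high level of TCONS_00822253 and NDRG2 was thus not shared by these neighbours on the scaffold.

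Markers of several cell types shared with TCONS_00822253 the highest value in Meishan replicate 3. Among them were the testis markers SOX9, DHH, INSL3 and CYP17A1, and the stromal markers NR2F2, DCN and COL1A2. The supporting cell markers FST, LHX9 and AMHR2 shared it as well, and so did WT1 by a small margin (12.3 compared with 12.2 in Large White replicate 3). The stromal markers COL3A1 and LUM and the supporting cell marker GATA4 did not share it. COL3A1 was at 512.9 there, 505.4 and 490.2 in Meishan replicates 1 and 2, and 745.8 to 779.7 in Large White. LUM was at 8.56, at 10.7 and 5.75, and at 13.2 to 18.2, in the same order. The endothelial and macrophage markers that could be paired were lowest in Meishan replicate 3. The level of TCONS_00822253 without Meishan replicate 3 was 22.7 to 54.7, so it was present in all 6 libraries. The part of these cell types in the level of TCONS_00822253 was not tested.

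The features whose pattern over the 6 libraries was most like each lncRNA were taken from 13008 with a mean RPKM of at least 1, for protein-coding genes where a symbol is known, by Pearson r of log2(RPKM + 1). They are the highest of many values over 6 libraries and are given as a description. For TCONS_00265313 these were UNC13B (r = 0.997), a vesicle priming protein, RPA1 (0.997), which binds single-stranded DNA, LOXL4 (0.993), of the collagen cross-linking lysyl oxidases, and the lncRNA TCONS_00170699 (0.992). For TCONS_00785462 they were GPD1L (0.999), related to glycerol phosphate dehydrogenase, HADHA (0.998), of mitochondrial fatty acid oxidation, EPHX1 (0.998), the microsomal epoxide hydrolase, and TCONS_00190114 (0.977). TCONS_00785462 had 313 features with an r of at least 0.95, the most of the 4, followed by TCONS_00265313 with 165.

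For TCONS_00822253 the most like features were the zinc finger gene ZNF300 (0.993), the retinoic acid-responsive RARRES1 (0.992), the RNA helicase DHX30 (0.992) and TCONS_00606800 (0.991). RARRES1 had an RPKM of 22.5, 24.9 and 301.6 in the Meishan replicates and 48.7, 12.7 and 31.3 in the Large White replicates. It shared with TCONS_00822253 the high value in Meishan replicate 3 and the low one in Large White replicate 2. DHX30 ranged only from 8.10 to 10.99, so a high r did not mean a change of like size. TCONS_00823102 had 17 features with an r of at least 0.95, the fewest, led by KLHL18 (0.990), DCUN1D2 (0.975), the mRNA export factor GLE1 (0.973) and TCONS_00699407 (0.967). KLHL18 lay between 2.42 and 3.67 in all 6 libraries and had its lowest value in Large White replicate 2, where TCONS_00823102 was listed at 0.

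TCONS_00077979, the lncRNA above the 4, had an RPKM of 2491, 2369 and 797 in the Meishan replicates and 4038, 4659 and 2937 in the Large White replicates. Its highest and lowest libraries were those of TCONS_00785462, Large White replicate 2 and Meishan replicate 3. As a description, its r with TCONS_00785462 was 0.95, and 0.81 without Meishan replicate 3. The r of TCONS_00077979 was 0.54 with TCONS_00265313, -0.88 with TCONS_00822253 and -0.73 with TCONS_00823102, and without Meishan replicate 3 it was -0.57, -0.32 and -0.75, in the same order.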

How the data were processed

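Total RNA was extracted with TRIzol, treated with DNase I and, after removal of ribosomal RNA, made into paired-end libraries that keep the strand (SMART), per the labels. The authors deposited one RPKM value per feature and sample, which they made by mapping to S. scrofa v10.2 with Ensembl annotation and strand-specific counting on read pairs with htseq-count. The submitters' processing notes name TopHat2 2.1.0 and HTSeq, and the methods name an earlier TopHat. Groups were taken from the breed given for each sample.

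Depth, lengths and whole reads were recovered from the steps of the RPKM values with the lncRNA lengths of the 1998 readable annotation rows. In each sample 100% of the values tested were whole reads within 0.001. A recovered length is a lower bound where all read numbers of a feature share a factor, and equalled the annotated one for 92.1% of 1386 lncRNAs. Floors cover counting error only, while the confidence intervals come from the spread between samples.

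The breeds were compared with limma 3.58.1 in R 4.3.3 (lmFit, eBayes with trend) on log2(RPKM + 1), a scale that understates the change of low features, over features that reached 0.5 RPKM in 3 or more samples, with Benjamini-Hochberg adjustment over all of them. The limits for calls follow the methods of the study, whose tool needs counts. The procedure was run on simulated data in which no library stood apart, so that run does not cover a library like Meishan replicate 3. Exact permutation tests and correlations used Python 3.11.15 with scipy 1.17.1. Alternatives were another pseudocount, other filters, upper quartile scaling, quantile normalization, no trend, the replicate number in the model, limma-voom on recovered reads and each sample left out.

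The 4 lncRNAs and the marker lists were chosen with earlier results of these data known. Named in the text are the 4 lncRNAs, the lncRNA on each side of the choice, NDRG2 with its family and the antisense pairs of its scaffold, the markers, and for each of the 4 the 3 protein-coding genes with a symbol and the lncRNA with the highest r. Of 71 markers in 10 lists, 43 were paired with an identifier, 26 passed the filter and 0 were called by limma. The levels of 1 of these lists are not reported here. Of these markers and the NDRG family, 6 of 29 had an unadjusted limma p under 0.05, compared with 15.9% of all tested features.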

Additional observations from a re-analysis of the deposited data

How the results depend on the processing

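None of the 4 lncRNAs was called under any of the 14 alternatives (limma or limma-voom), where the smallest adjusted p of the 4 ranged from 0.0589 (without Meishan replicate 3) to 0.566. Over all tested features, the 113 calls (32 higher and 81 lower in Meishan) became 62 with a pseudocount of 0.1, 4 without a filter, 27 under the replicate block, 62 with limma-voom (24 higher, 38 lower), and 2 to 240 with 1 library left out, 240 of them without Meishan replicate 3. Limma-voom moved the median log2 difference of all features by 0.12. With 1 library left out, the log2 difference ranged from -0.28 to 1.54 for TCONS_00265313 and from -0.089 to 1.18 for TCONS_00822253; the cause was not tested. The other 53 log2 differences of the 4 lncRNAs under alternatives kept their direction. Of the correlations, 56 kept their sign. TCONS_00265313 with TCONS_00785462 turned to -0.69 without the 2 farthest libraries and ranged from -0.50 to 0.71 with 1 left out, TCONS_00265313 with TCONS_00823102 ranged from -0.64 to 0.074, and TCONS_00822253 with TCONS_00823102 turned to -0.24 without the 2 farthest libraries. Between samples of the same replicate number the correlations of deviations were -0.042, 0.12 and 0.15, and 3 of 6 samples were closest to their own number. With 3 libraries per breed this cannot decide whether the numbers pair the samples. Under the replicate block, 2 of the 4 had an unadjusted p under 0.05, TCONS_00785462 (adjusted p = 0.165, limma) and TCONS_00823102 (0.167). So did 2400 of 14902 tested features and 236 of 1514 tested lncRNAs in that fit. Depth limits the levels of the 4 little, since the counting error of their mean reads was at most 4.21%, while 3 libraries per breed leave wide intervals.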

Other observations

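Among marker lists not described above, endothelial (3 of 5 paired) and macrophage markers (2 of 4 paired) were lowest in Meishan replicate 3, with a summed RPKM of 37.3 compared with 58.5 to 74.9 elsewhere and of 8.82 compared with 14.6 to 19.5. Stromal markers (5 of 8 paired) summed to 589 to 958, most of it COL3A1 at 490.2 to 779.7, while the collagen gene COL1A2 was at 144.3 in Meishan replicate 3 and 33.2 to 60.7 elsewhere, and the proteoglycan gene DCN at 149.97 and 41.0 to 94.98. LUM was not highest in Meishan replicate 3, at 8.56 compared with 5.75 to 18.2 elsewhere. The red blood cell markers (3 of 6) summed to 42.2 to 139. Mesonephros and kidney markers (7 of 8) summed to 2.61 to 6.17, with UMOD at 0 in all libraries, and skeletal and cardiac muscle markers (2 of 4) to 0.362 to 2.76. The 4 germ cell markers that passed the filter had a median log2 difference (Meishan minus Large White) of 0.046, and 0 of them were called. Of these, PRDM1 had a mean RPKM of 1.71 in Meishan and 0.991 in Large White and STRA8 1.13 and 0.755, while KIT, a receptor of germ cells also found in other ovarian cells, had an RPKM of 1.68, 1.99 and 7.77 in the Meishan replicates and 16.6, 14.8 and 16.9 in the Large White replicates (limma, Benjamini-Hochberg adjusted p = 0.0866).

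NDRG2 was 5.08-fold above the median of the other 5 libraries in Meishan replicate 3. Genes near it in the order of the RefSeq table (Sscrofa11.1), chosen after their values were seen, differed there by various amounts. METTL17 was 2.11-fold above its median (13.1 compared with 5.504 to 8.64 RPKM) and ARHGEF40 1.21-fold (14.4 compared with 8.24 to 12.4). Of the genes near 0, SLC39A2 had an RPKM of 1.23 there and 0 to 0.320 elsewhere, and TMEM253 had 0.342 there and 0 to 0.410 elsewhere.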
